A study of Homo sapiens with 16 samples.

Results

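The genes of mitosis and cytokinesis were followed in human embryonic stem cell-derived pancreatic progenitors while their actin filaments were taken apart. The list holds 50 named genes of the G2/M transition, the spindle and cell division, out of 35810 genes in the quantification. They were chosen by function, but with earlier results of these data known. All 50 were found and all 50 passed the filter on low counts, which left 16705 genes to test. The cells were SA121-derived and carried an NGN3-GFP reporter, a fluorescent protein read out for the endocrine factor NEUROG3, and were used at day 19 of pancreatic differentiation. Every library came from this 1 line and this 1 stage. Latrunculin B, a compound that binds free actin and keeps it from joining filaments, was given at 0.5 µM for 3, 6 or 24 h (3 libraries each) or 12 h (2 libraries). The controls were taken at 0 h (3 libraries) and after 24 h with the solvent DMSO (2 libraries). The labels give DMSO for the 0 h libraries as well, whereas the series description has them harvested before treatment, so whether they met DMSO is not settled. Nothing in the labels says that the libraries of a group came from separate cultures, and p-values therefore measure the spread between these libraries, which may be technical.

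Cells enter mitosis when cyclin B and CDK1, freed by CDC25 phosphatases and helped by the Aurora and Polo kinases, switch on together. The spindle then captures chromosomes at their kinetochores, a checkpoint holds anaphase back until all are attached, and the anaphase-promoting complex destroys securin and cyclin B. Division ends at the central spindle, where RhoA is activated and an actomyosin ring, scaffolded by anillin, pinches the cell apart. Most of these genes are transcribed together late in the cell cycle and are silent in resting cells, so their summed RNA in a bulk library follows how many cells are in G2 or M as well as how much RNA each holds, and fewer such cells and less RNA per cell cannot be told apart here.

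The libraries held 23609727 to 33515398 estimated reads, and levels are given as CPM, read counts scaled to library size, after TMM scaling. The progenitor label fitted 7 of its 8 markers: PDX1, SOX9 and GP2 stood at 336 ± 12.2, 421 ± 17.8 and 1640 ± 99.2 CPM at 0 h (SD, n = 3), while PTF1A was near 0 (0.17 to 0.302 CPM). Of the 4 pluripotency markers, POU5F1, NANOG and DPPA4 were low at 0 h (1.06 to 1.91, 0.558 to 0.871 and 1.11 to 1.27 CPM), while LIN28A stood at 401 ± 14.9 CPM (SD, n = 3). The 12 h libraries did not resemble each other. Their counts differed by a mean chi-square of 63.2 per gene, against 5.94 to 22.2 for the other pairs within a group. The 6 mesenchyme markers summed to 356 CPM in replicate 1 and 1325 CPM in replicate 2, and to 208 to 521 CPM in the other 14 libraries. The 5 liver and gut markers summed to 761.5 and 1464 CPM in the same 2 libraries, against 491 to 867 CPM elsewhere. Most counts and medians that rest on 12 h are therefore also given without replicate 2.

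The promoters are shown first, for the letters near the start sites that most of the genes with an entry share. RefSeq promoters (GRCh38.p14, 250 bases before to 50 after each start) matched 42 of the 50 genes with 52 windows, some of which overlap because 6 genes have 2 or more. UBE2C, BUB3, BIRC5, TTK, RACGAP1, FOXM1, TPX2 and AURKA had no entry. Cell cycle genes of this class are known for a hexamer called the cell cycle homology region, read by DREAM and MuvB complexes, and for CCAAT boxes read by NF-Y. The hexamer TTTGAA, counted on both strands, was in 34 of the 52 windows (65.4%), and in 15.2% of all 35116 promoters of the same length. Its variant TTTAAA, which reads the same on both strands, was in 16 (30.8%, against 12.2%), and CCAAT on either strand was in 39 (75%, against 34.6%). TTTGAA or TTTAAA was present in 37 of the 42 genes. Of the 41 S phase genes listed for comparison 35 had an entry, with TTTGAA in 1 of 46 windows (2.17%) and the E2F-type letters GGCGGGAA in 10 (21.7%), where the mitosis genes had GGCGGGAA in 4 (7.69%). Of the 47 TTTGAA matches in the mitosis promoters, 33 lay within 50 bases of the annotated start (70.2%), against 27.2% of the matches in all promoters.

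The 120 bases before the start are given for 7 genes whose levels are described below, 5 with TTTGAA and 2 with TTTAAA. Capitals mark these hexamers and the CCAAT box on either strand. On the other strand the hexamer TTTGAA is written TTCAAA. The reversed box is written ATTGG. Neighbouring or overlapping matches run together. All 7 lie on the plus strand of GRCh38.p14, HMMR at chr5:163460512-163460631, CCNB2 at chr15:59105026-59105145, PLK1 at chr16:23678769-23678888, CDC20 at chr1:43358861-43358980, ANLN at chr7:36389742-36389861, CCNB1 at chr5:69167030-69167149 and KIF20A at chr5:138178992-138179111.
HMMR: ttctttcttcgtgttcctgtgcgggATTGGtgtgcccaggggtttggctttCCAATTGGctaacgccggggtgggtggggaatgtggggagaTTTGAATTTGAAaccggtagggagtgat
CCNB2: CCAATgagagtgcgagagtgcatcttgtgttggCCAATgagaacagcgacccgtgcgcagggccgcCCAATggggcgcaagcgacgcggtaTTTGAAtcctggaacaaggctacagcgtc
PLK1: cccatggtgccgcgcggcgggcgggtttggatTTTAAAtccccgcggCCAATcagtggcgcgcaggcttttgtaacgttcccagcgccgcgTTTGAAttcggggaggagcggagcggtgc
CDC20: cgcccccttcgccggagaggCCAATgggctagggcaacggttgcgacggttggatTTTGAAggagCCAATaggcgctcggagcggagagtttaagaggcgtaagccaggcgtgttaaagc
ANLN: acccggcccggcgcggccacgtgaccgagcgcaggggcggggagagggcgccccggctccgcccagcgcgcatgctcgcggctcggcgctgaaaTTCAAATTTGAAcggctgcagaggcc
CCNB1: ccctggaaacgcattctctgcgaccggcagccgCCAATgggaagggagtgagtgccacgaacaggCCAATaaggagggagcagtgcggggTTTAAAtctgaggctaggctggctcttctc
KIF20A: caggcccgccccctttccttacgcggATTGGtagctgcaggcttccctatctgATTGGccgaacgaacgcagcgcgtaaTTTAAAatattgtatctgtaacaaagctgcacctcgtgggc
HMMR carries TTTGAA back to back, starting 28 and 22 bases before the start. CCNB2 and PLK1 both carry it 29 bases before, with CCAAT boxes upstream. ANLN has the hexamer in both orientations, 26 and 20 bases before the start, and no CCAAT in the stretch. In CCNB1 and KIF20A the variant TTTAAA takes that place, 30 and 41 bases before. None of the 4 CDC25B windows held TTTGAA, and neither did CKAP2 or CDCA5. These are matches of letters only and say nothing of binding in these cells.

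**Figure D1:**
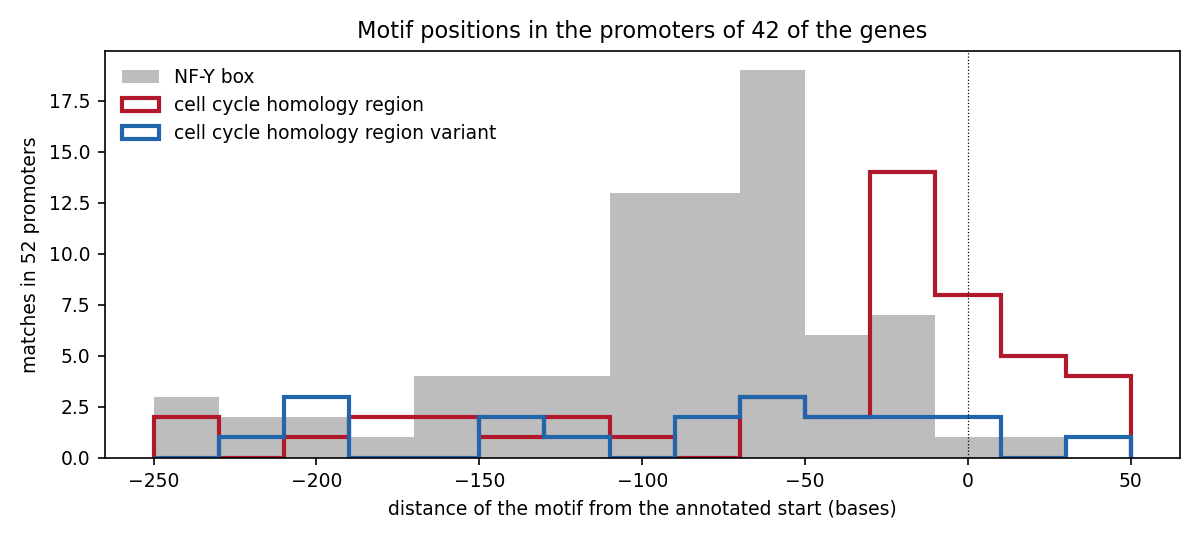
Positions of 3 motifs in 52 promoters of 42 of the genes, as the number of matches in bins of distance from the annotated start, with negative values before the start. Matches to the cell cycle homology region gather at the start (33 of 47 within 50 bases), while those to the NF-Y box have their median at -78 bases.

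The median level of the 50 genes was lower after 24 h than at 0 h, both with and without the drug. With the drug, the fitted change from 0 h to 24 h was below 0 for 47 genes and above 0 for 3. Each library was summarised by the median over the genes of log2(CPM / mean CPM at 0 h). The 0 h libraries stood at -0.10 to 0.12, those of 3 h latrunculin B at -0.32 to -0.11 and those of 6 h at -0.35 to -0.14. The 12 h libraries stood at -0.18 and 0.20, those of 24 h latrunculin B at -0.68 to -0.28 and the 24 h controls at -0.81 and -0.59. The 2 groups of 24 h therefore overlapped in this median, and every one of their 5 libraries lay below the 3 of 0 h. Summed over the genes, the level was 1577 ± 121 CPM at 0 h (SD, n = 3), 922.6 and 1061 CPM in the 24 h controls and 1204 ± 163 CPM at 24 h of latrunculin B (SD, n = 3).

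**Figure D2:**
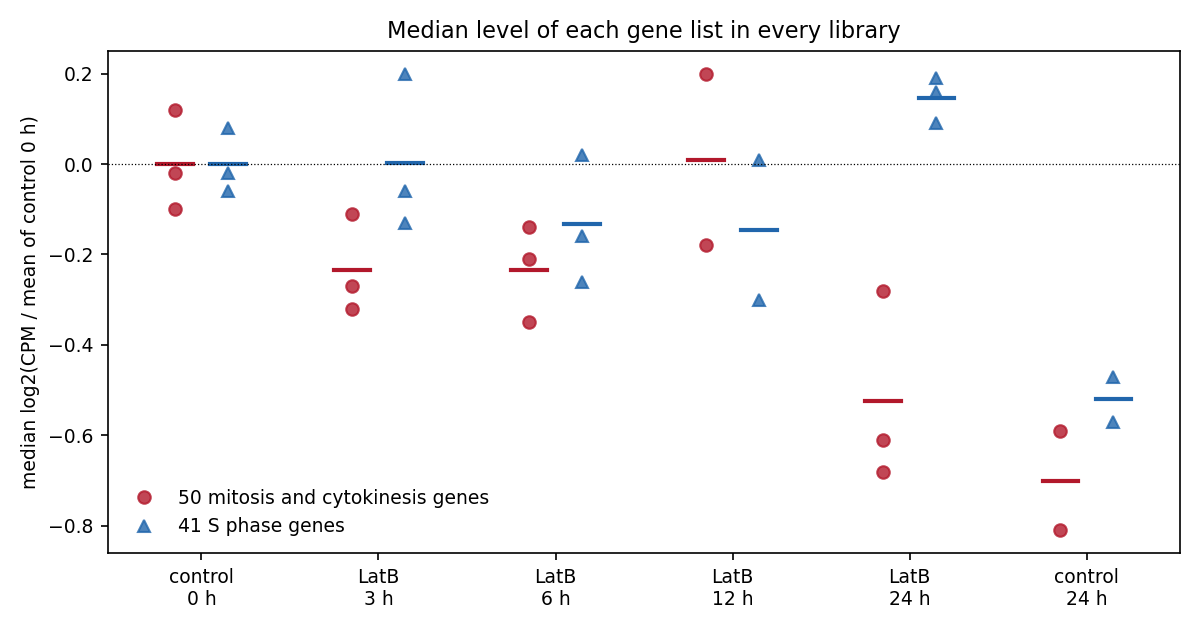
Median log2(CPM / mean of control 0 h) over the 50 mitosis and cytokinesis genes (circles) and over 41 S phase genes (triangles), 1 symbol per library and a bar at the group mean. The group mean of the mitosis median is lowest in the 24 h controls (libraries at -0.81 and -0.59). At 24 h of latrunculin B the S phase median lies at 0.09 to 0.19, while the mitosis median lies at -0.68 to -0.28 and overlaps these controls.

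The set was lower after a day in culture with DMSO and without latrunculin B. Since it is not settled whether the 0 h libraries met DMSO, time and solvent cannot be told apart here. Between the controls of 24 h and 0 h the fitted log2 fold change was below 0 for all 50 genes, with a median of -0.71, where the median of all genes was 0.006. Both 24 h libraries lay below all 3 of 0 h for 48 of the 50 genes, and for 14.4% of all genes tested. At an adjusted p under 0.05 (edgeR's quasi-likelihood test, Benjamini-Hochberg over all genes tested, used throughout) 10 genes were lower and none higher, against 0.251% of all genes called in either direction. Those were CDK1 and FOXM1 of mitotic entry, CDCA8 of the passenger complex, TTK of the checkpoint, NUF2 of the kinetochore, the motor KIFC1, the division genes KIF23, RACGAP1 and ANLN, and CDCA5. In all, 48 genes had an unadjusted p under 0.05.

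KIFC1, a minus-end motor that draws spindle poles together, changed most among the genes called. It was at 24.4, 22.1 and 20.8 CPM in the 0 h libraries and at 9.19 and 11.1 CPM after 24 h, a log2 fold change of -1.14 ± 0.15 (adjusted p = 0.0122). CDCA5 (sororin), which guards cohesion between sister chromatids, was at 20.7, 17 and 17.1 CPM at 0 h and at 8.74 and 9.49 CPM at 24 h. The 24 h libraries were again both below all of 0 h, with a change of -1.0 ± 0.17 (adjusted p = 0.0469). NUF2, a subunit of the NDC80 complex that holds microtubules at the kinetochore, went from 9.8, 8.08 and 8.74 CPM to 4.17 and 4.98 CPM, a change of -0.95 ± 0.16 (adjusted p = 0.0469). The count of calls was unstable in this comparison of 3 libraries with 2, between 0 and 3 when 1 library was left out (0 without replicate 1 of either control) and 35 by DESeq2, although the median stayed between -0.81 and -0.59 with each library left out in turn.

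The libraries of 3 h of latrunculin B were compared with those of 0 h. In this comparison 11 genes were lower and 1 higher, 24% of the 50, where 31.6% of all genes were called. The median change was -0.23. Those that fell were CCNB1 and CCNB2, CDCA8, BUB1 and BUB3, CDC20, KIF20A, and 4 of the 6 spindle assembly genes (HMMR, TPX2, DLGAP5 and ASPM). None of the 6 centromere and kinetochore genes, the 4 spindle motors or the 3 chromosome structure genes passed the test. At 6 h, 17 genes were lower and 1 higher (36%, against 43.3% of all genes), with a median of -0.25. The genes called at both times were 8, namely AURKA, BUB1, BUB3, CCNB2, CDC20, DLGAP5, HMMR and TPX2. The call at 3 h fell to 6 genes without replicate 1 of the controls or of the treated libraries and to 7 without replicate 3 of the controls, and the call at 6 h to 11 without replicate 1 of either group.

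HMMR, a microtubule-binding protein of the spindle poles, fell most at 3 h, and at 6 h most among the genes called. It was at 17.7, 15.4 and 17.7 CPM at 0 h, at 9.34, 9.64 and 8.55 CPM after 3 h of latrunculin B and at 7.5, 8.89 and 9.29 CPM after 6 h. The treated libraries were all below the controls, with log2 fold changes of -0.88 ± 0.18 (adjusted p = 0.002) and -0.99 ± 0.18 (adjusted p = 0.000666). KIF20A, the kinesin that carries the passenger complex to the central spindle, was at 19.97, 17 and 18 CPM at 0 h and at 10.01, 10.8 and 11.2 CPM at 3 h. All 3 treated libraries were below all controls, a change of -0.78 ± 0.17 (adjusted p = 0.00386). At 6 h it had come back to 14.8, 14 and 17.6 CPM, and the change against 0 h was -0.24 ± 0.17 (adjusted p = 0.283). The step from 3 to 6 h was itself positive for KIF20A (0.54 ± 0.18 (adjusted p = 0.0427)), but the call held in 6 of 14 alternative fits only and was lost whenever 1 library of 3 or 6 h was left out.

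NUSAP1 and CDCA3 had, after HMMR, the largest changes among the genes called at 6 h. NUSAP1, a microtubule bundler of the spindle, was at 17.6, 14.5 and 14.8 CPM at 0 h, 15, 11.7 and 17 CPM at 3 h and 6.51, 10.5 and 10.2 CPM at 6 h. Its changes were -0.10 ± 0.21 (adjusted p = 0.754) and -0.79 ± 0.21 (adjusted p = 0.00931), and the step from 3 to 6 h was -0.68 ± 0.21 (adjusted p = 0.036). A longer transcript unit annotated over NUSAP1 on the same strand took a mean of 836 reads per library, against 321 for NUSAP1, so the split of reads between them makes its level uncertain. PTTG1 (securin), the inhibitor of separase, also fell between 3 and 6 h (-0.45 ± 0.13 (adjusted p = 0.0211)). The call for this step held in 8 of 14 alternative fits for NUSAP1 and in 11 of 14 for PTTG1. CDCA3 was at 10.4, 11.4 and 10.9 CPM at 0 h and 6.28, 6.81 and 7.54 CPM at 6 h, with no overlap and a change of -0.66 ± 0.16 (adjusted p = 0.0051). In all, the step from 3 to 6 h passed the test for 4 genes, 1 higher and 3 lower, where 22.2% of all genes were called.

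AURKA, the Aurora kinase of the centrosome, went the other way. It was at 25.4, 23.3 and 24.1 CPM at 0 h and at 45.5, 54.2 and 59.2 CPM after 3 h of latrunculin B, a rise of 2.18-fold with every treated library above every control. The log2 fold change was 1.13 ± 0.10 (adjusted p = 4.33e-06). It was at 36.2, 37.3 and 41.5 CPM at 6 h, 39.5 and 36.7 CPM at 12 h and 24.3, 28.9 and 23.4 CPM at 24 h, and at 14.6 and 17.4 CPM in the 24 h controls. Against its control it stayed up at 6 h (0.66 ± 0.11 (adjusted p = 0.000228)), 12 h (0.65 ± 0.12 (adjusted p = 0.000795)) and 24 h (0.67 ± 0.12 (adjusted p = 0.000723)). It was called higher in all of these in each alternative fit but 1: set against 0 h, the 24 h libraries were not called (0.07). The decline from 3 to 6 h also passed the test (-0.47 ± 0.10 (adjusted p = 0.00587)). Its partner at the spindle, TPX2, which activates the kinase on microtubules, fell at 3 h (-0.52 ± 0.12 (adjusted p = 0.00557)) and 6 h (-0.39 ± 0.12 (adjusted p = 0.0194)). The related kinase AURKB, of the passenger complex, had changes of -0.07 ± 0.17 and -0.30 ± 0.17, neither past the threshold (adjusted p = 0.808 and 0.186).

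**Figure D3:**
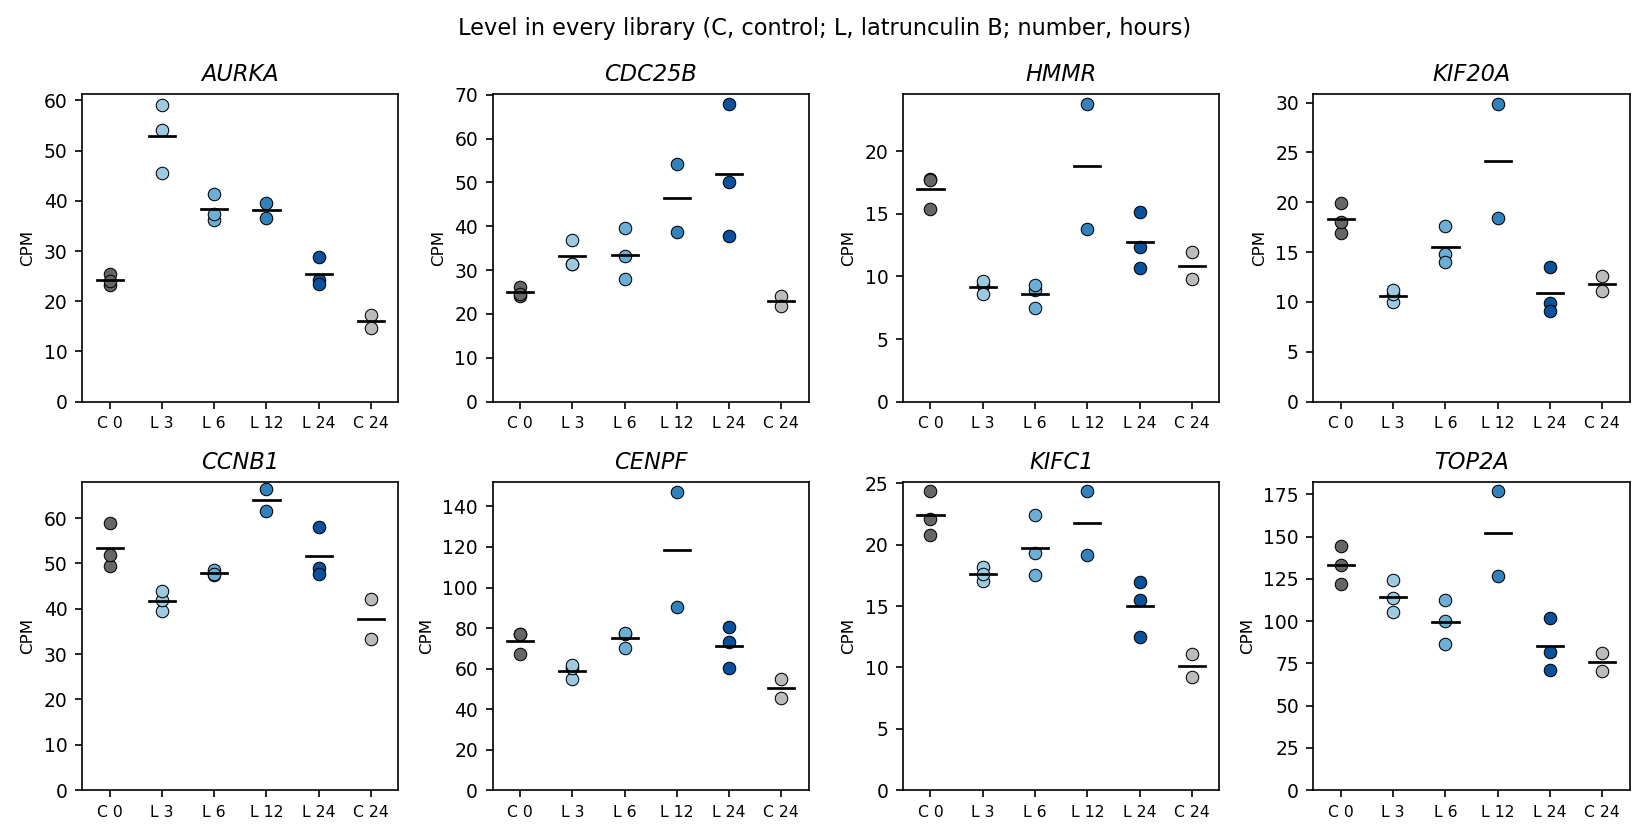
CPM in every library for 8 of the genes, with the group mean as a bar; C is control, L is latrunculin B and the number is hours. AURKA is highest at 3 h, CDC25B at 12 and 24 h, HMMR and KIF20A are low early and vary between the 2 libraries of 12 h, and KIFC1 and TOP2A are low in the 24 h controls.

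At 12 h the set was back near its 0 h level, with a median change of 0.03. Only 5 genes were called, 4 higher and 1 lower (10%, against 35.8% of all genes), and without replicate 2 the median was -0.18 with 2 higher and 3 lower. Without replicate 1 it was 0.20 with 8 higher and 1 lower, and the call fell to 3 genes without replicate 2 of the controls. CDC25B, a phosphatase that frees cyclin-CDK1 at the onset of mitosis, was at 24.1, 26.1 and 24.5 CPM at 0 h and at 54.2 and 38.7 CPM at 12 h. Both treated libraries were above all controls, with a change of 0.89 ± 0.21 (adjusted p = 0.0045), and 1.12 (adjusted p = 0.003) without replicate 2. CENPF, a large protein of the outer kinetochore and nuclear matrix, was at 77.2, 67.1 and 77.1 CPM at 0 h and at 90.5 and 147 CPM at 12 h, a change of 0.69 ± 0.16 (adjusted p = 0.00529). It was not called without replicate 2, at 0.29 (adjusted p = 0.135). ANLN (anillin), which ties actin, myosin and septins in the contractile ring, rose by 0.34 ± 0.11 (adjusted p = 0.0232), and it too was not called without replicate 2 (0.21 (adjusted p = 0.237)). PRC1, which bundles the microtubules of the central spindle, was the gene called lower. It was at 42.6, 41.6 and 36.2 CPM at 0 h and 27.9 and 34.3 CPM at 12 h, a change of -0.37 ± 0.12 (adjusted p = 0.0291), and -0.53 (adjusted p = 0.0142) without replicate 2. A second unit annotated over PRC1 took a mean of 202 reads per library, against 911 for PRC1.

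After 24 h, latrunculin B libraries were set against the controls of the same age. The question was whether the set differed from that in the DMSO controls after the same time in culture. In these data 10 genes were higher and none lower (20%, against 40.8% of all genes called), the median was 0.19, and all 3 treated libraries lay above both controls for 17 genes, where 33.4% of all genes did. The genes called were AURKA, CDC25B, CCNB1 and FOXM1 of mitotic entry, TTK, CENPF, KIFC1, CKAP2, ANLN and CDCA5. Without replicate 1 of the 24 h controls, 4 of these were called (ANLN, AURKA, CDC25B and CKAP2) and the median was 0.09. Without replicate 2 of the treated libraries 7 were higher and 1 lower with a median of 0.07, and without replicate 2 of the 24 h controls the median was 0.34. Those called at both 12 and 24 h were ANLN, AURKA, CDC25B and CENPF.

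CDC25B showed the largest change among them. It was at 24 and 21.8 CPM in the 24 h controls and 37.9, 68 and 50.05 CPM with the drug, 2.27-fold higher, with a log2 fold change of 1.18 ± 0.21 (adjusted p = 0.000747). The other phosphatase gene listed, CDC25C, had few reads (28 to 120 per library) and a change of 0.10 ± 0.44 (adjusted p = 0.883). CDCA5 was at 8.74 and 9.49 CPM in the controls and 14.4, 16.9 and 13.5 CPM in the treated libraries, which did not overlap, a change of 0.71 ± 0.17 (adjusted p = 0.00503). KIFC1 was at 9.19 and 11.1 CPM against 15.5, 17 and 12.4 CPM (0.56 ± 0.15 (adjusted p = 0.00867)). The treated libraries stayed below the 24.4, 22.1 and 20.8 CPM of 0 h. ANLN was at 37.1 and 43 CPM in the controls and 58.2, 64.3 and 54.4 CPM with latrunculin B (0.56 ± 0.11 (adjusted p = 0.0014)). CKAP2, a microtubule-stabilising spindle protein, was at 45.1 and 47 CPM and 63.5, 68 and 61.7 CPM (0.48 ± 0.10 (adjusted p = 0.00139)). At 0 h CKAP2 was at 61.6, 54.2 and 58.8 CPM, so the treated libraries were also above these, the lowest of them by a narrow margin.

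CENPF was at 45.7 and 54.6 CPM in the 24 h controls and 73.3, 80.5 and 60.3 CPM in the treated libraries (0.51 ± 0.17 (adjusted p = 0.0284)). TTK, the kinase that starts the spindle checkpoint, was at 9.36 and 11 CPM and 13.3, 15.3 and 12.4 CPM (0.42 ± 0.14 (adjusted p = 0.0292)). Both genes were separated between the groups. For 2 roles the gene with the lowest p did not pass. CDCA8 (borealin) was at 8.81 and 9.68 CPM in the controls and 11.3, 12.5 and 10.3 CPM with the drug (0.30 ± 0.13 (adjusted p = 0.0895)). CDC20, the activator of the anaphase-promoting complex, was at 14.7 and 18.2 CPM and 19.2, 22.5 and 18.1 CPM, where the lowest treated library lay below the higher control (0.28 ± 0.13 (adjusted p = 0.0994)).

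**Figure D4:**
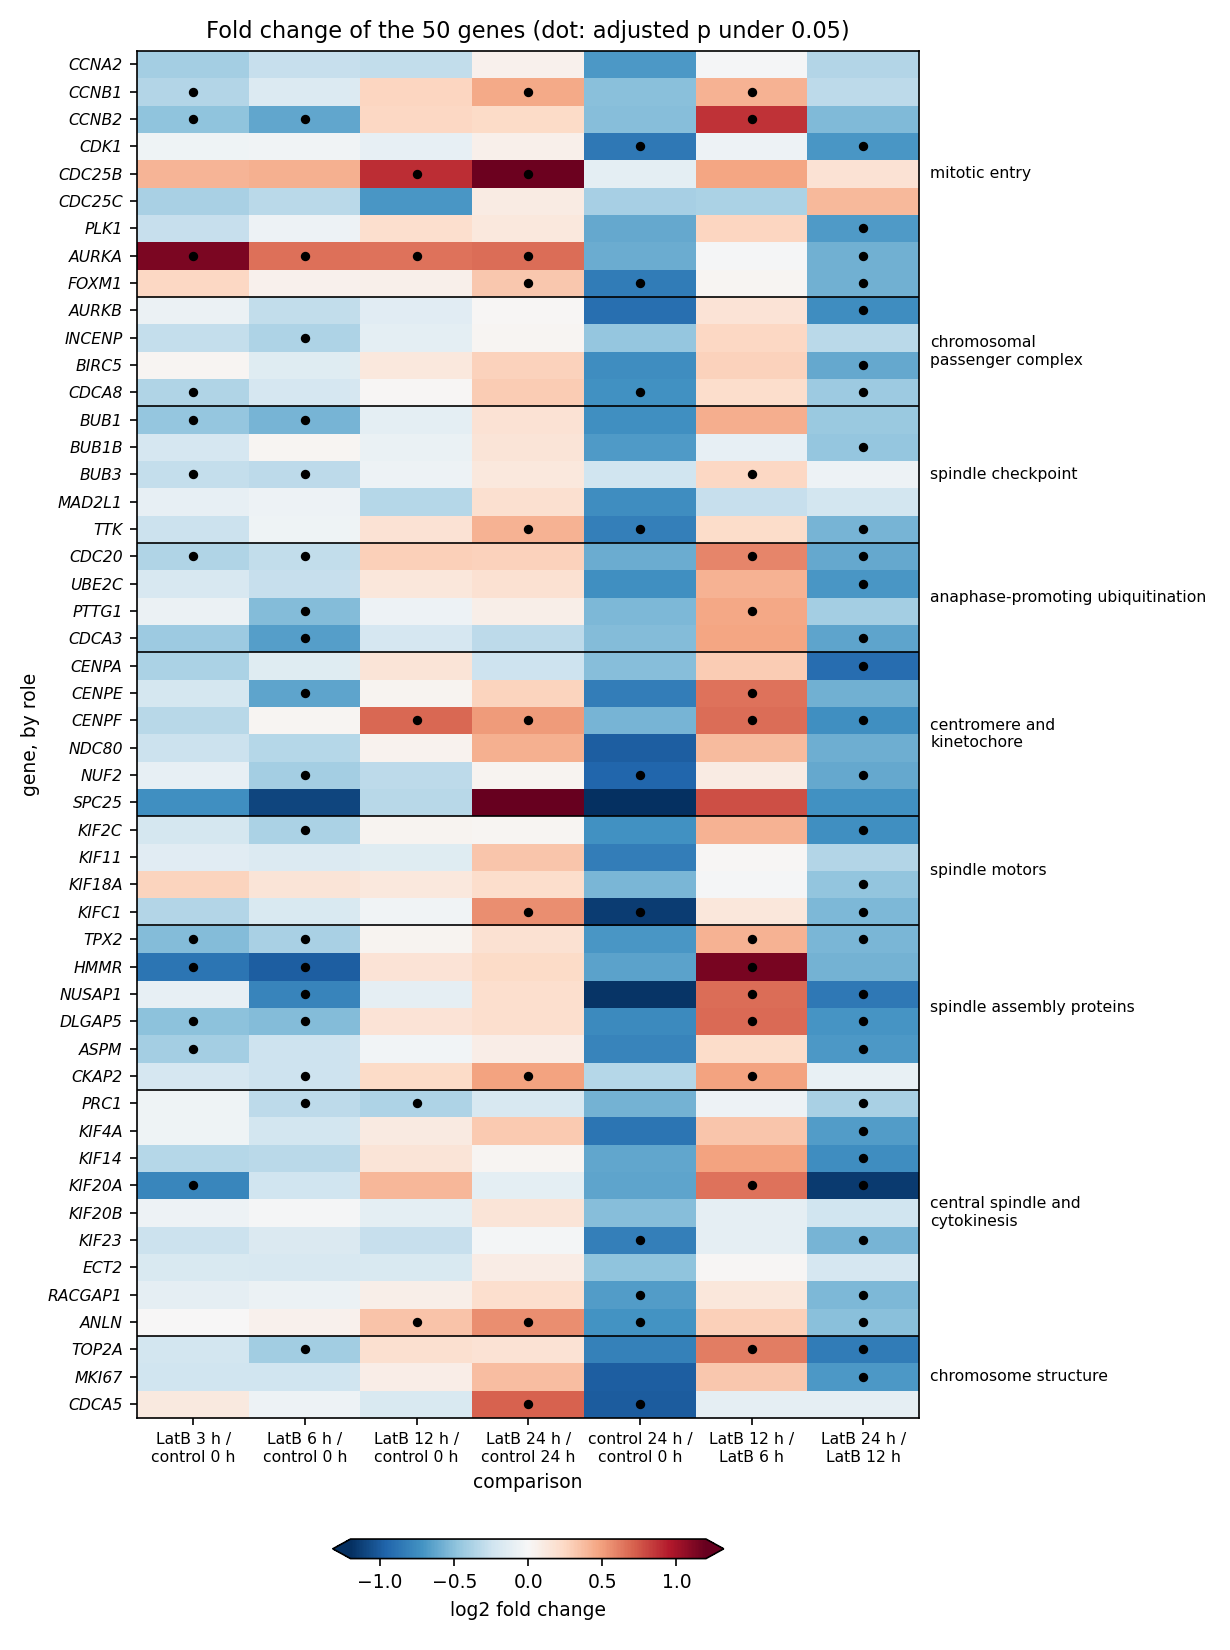
Log2 fold change of each of the 50 genes (rows, by role) in 7 comparisons (columns), red for higher and blue for lower in the first group named, with a dot where the adjusted p is under 0.05; colours stop at the ends of the scale. The column of the 24 h against the 0 h control is blue for all 50 genes, with 10 dots, and AURKA is red with a dot in the 4 comparisons of latrunculin B with a control.

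Which control is used sets the direction of most of these results. Set against the 24 h controls, the same 3 h libraries had 27 genes higher and none lower (median 0.52, with 32.4% of all genes called), those of 6 h had 26 higher and none lower (0.52, 41.3%) and those of 12 h had 40 higher and none lower (0.76, 34.1%). Without replicate 2 of 12 h the last count was 25 higher and none lower, with a median of 0.56. Set against 0 h, the 24 h libraries had 1 gene higher and 37 lower (-0.53, 42.4%). The gene that stayed higher was CDC25B. AURKA was higher against either control at 3, 6 and 12 h. No control of 3, 6 or 12 h was included among these libraries, so the part of a change that comes with the time in culture and the part that comes with the drug cannot be told apart at those times. Only the comparison at 24 h matches the controls in time.

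**Figure D5:**
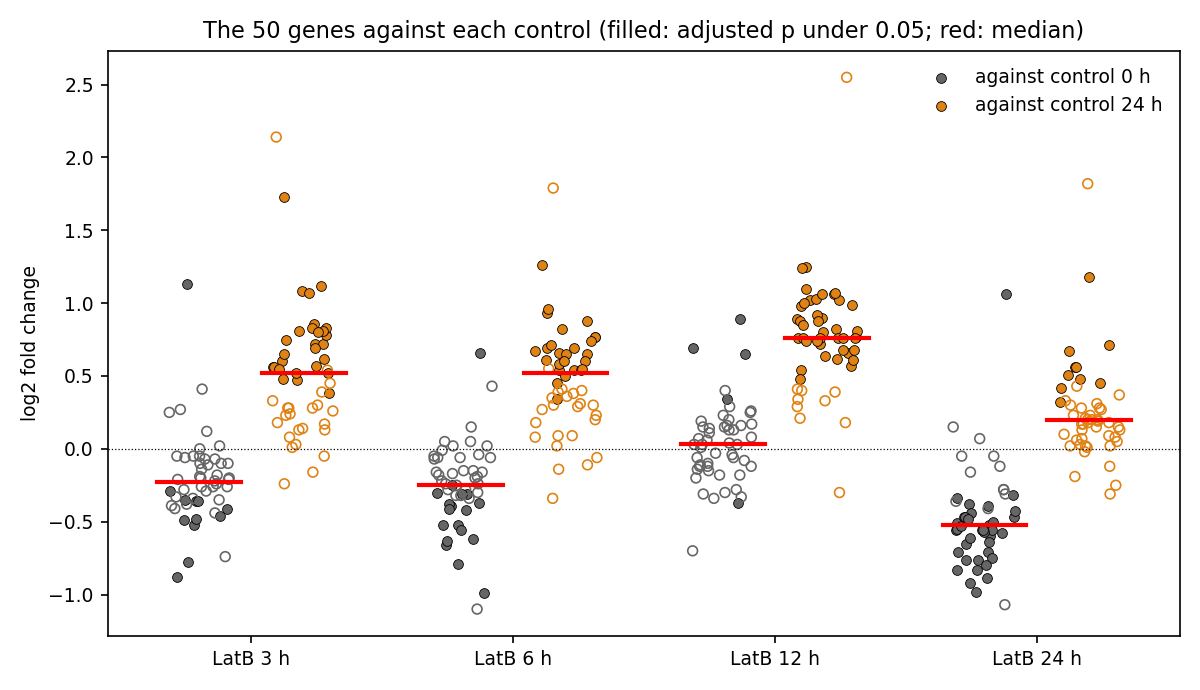
Log2 fold change of the 50 genes at each time of latrunculin B against the controls of 0 h (grey) and of 24 h (orange), 1 point per gene, filled where the adjusted p is under 0.05, with the median in red. At 3 h the median is -0.23 against 0 h and 0.52 against 24 h, and at 24 h it is -0.53 and 0.19.

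Steps between the drug times use no control. From 6 to 12 h, 14 genes rose and none fell (29% of all genes were called), with a median of 0.29. HMMR rose most, from 7.5, 8.89 and 9.29 CPM to 13.8 and 23.8 CPM (1.14 ± 0.20 (adjusted p = 0.00101)), followed by CCNB2 (0.87 ± 0.18 (adjusted p = 0.0031)). Without replicate 2 of 12 h, which left 1 library in that group, HMMR changed by 0.69 and CKAP2 by 0.26, and the median was 0.11. Without replicate 1 of 12 h the median was 0.40. Without replicate 1 of 6 h, 8 genes were higher and 1 lower, where 24% of all genes were called. From 12 to 24 h, 31 genes fell and none rose, 62% of the set against 11.7% of all genes, with a median of -0.57. KIF20A fell most among these, from 18.4 and 29.9 CPM to 9.93, 13.5 and 9.11 CPM (-1.15 ± 0.19 (adjusted p = 0.00334)). TOP2A, the topoisomerase that untangles chromosomes, went from 127 and 177 CPM to 81.8, 102 and 71.3 CPM (-0.84 ± 0.16 (adjusted p = 0.00688)). CDK1 fell by the same test (-0.70 ± 0.14 (adjusted p = 0.00935)), as did PLK1 (-0.68 ± 0.13 (adjusted p = 0.00694)).

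The fall from 12 to 24 h also leaned on single libraries. Without replicate 2 of 12 h, which left 1 library in that group, the median was -0.34, and without replicate 1 of 12 h it was -0.73. Without replicate 1 of 24 h, 20 genes were called lower (13.2% of all genes called). Without replicate 2 of 24 h the count was 37 (6.45%), and without replicate 3 of 24 h 10 (5.12%). A fit of these 2 groups alone called none of the 50 and none of all genes. Marker sums moved with it: the mesenchyme markers summed to 356 and 1325 CPM at 12 h and to 208 to 499 CPM at 24 h, and their part in the result was not tested.

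The change at 3 h against the 0 h controls was compared with that at 24 h against the 24 h controls, by testing the difference of the 2 changes. The change between the controls enters this difference, so a changed effect of the drug cannot be told apart from it. That difference was positive for 47 of the 50 genes, with a median of 0.41. It passed the test for 13 genes in that direction and for AURKA in the other (28%, against 27.9% of all genes). CCNB1, the cyclin that drives mitotic entry, had a change of -0.35 ± 0.09 (adjusted p = 0.0112) at 3 h and 0.45 ± 0.11 (adjusted p = 0.00442) at 24 h. It was at 58.8, 49.5 and 51.8 CPM at 0 h, 39.5, 42 and 43.8 CPM at 3 h, 33.4 and 42.2 CPM in the 24 h controls and 49, 58 and 47.8 CPM at 24 h of the drug. Each pair of groups was separated, with the treated libraries below at 3 h and above at 24 h. CCNB1 was the 1 gene called lower at 3 h and higher at 24 h. Set against the other control it was called at neither time, with 0.14 (adjusted p = 0.341) at 3 h and -0.05 (adjusted p = 0.715) at 24 h. Without replicate 1 of the 24 h controls the difference was called for 4 genes in the positive direction and 1 in the negative.

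The calls are given by role, as counts in short lists between which no difference was tested. They are to be read against the shares of all genes called. These were 31.6% at 3 h, 43.3% at 6 h, 35.8% at 12 h, 40.8% at 24 h and 0.251% between the controls. Of the 9 genes of the central spindle and cytokinesis, 1 was lower at 3 h (KIF20A) and 1 at 6 h and at 12 h (PRC1), and ANLN was the 1 higher at 12 and 24 h, while 3 were lower in the 24 h controls against 0 h. ECT2 and RACGAP1, which together switch on RhoA at the cell equator, passed no test of latrunculin B against its control (ECT2 -0.18, -0.19, -0.18 and 0.09; RACGAP1 -0.11, -0.07, 0.07 and 0.20). Of the 6 spindle assembly genes, 4 were lower at 3 h, 5 at 6 h and 1 higher at 24 h. Of the 5 checkpoint genes, 2 were lower at 3 and at 6 h (BUB1 and BUB3). MKI67, the proliferation marker that coats mitotic chromosomes, was at 85.8, 69 and 70.9 CPM at 0 h, 36.3 and 39.6 CPM in the 24 h controls and 44.9, 60.7 and 41.7 CPM at 24 h of the drug. MKI67 passed none of the tests of latrunculin B at 3, 6 and 12 h against 0 h and at 24 h against 24 h (0.37 ± 0.20 at 24 h, adjusted p = 0.162). Set against the other control it was called each time, higher at 3, 6 and 12 h (0.75, 0.74 and 1.07) and lower at 24 h (-0.61).

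Per unit of transcript length the set spanned a wide range at 0 h. BUB3 was the most abundant at 91.3 ± 1.4 TPM and CCNB1 followed at 69.2 ± 5.01 TPM, while KIF14 was the least at 2.88 ± 0.255 TPM (SD, n = 3). SPC25, a kinetochore subunit, had the widest fitted changes (-2.89 ± 1.0 between the controls, adjusted p = 0.348) and was estimated at 0 reads in 1 library of 6 h and up to 191 reads elsewhere. UBE2C has a processed copy, UBE2CP5, whose reads came to 22.1% of its own, and CDC20P1 took 3.33% of those of CDC20, so levels of UBE2C and CDC20 are uncertain to that extent. For the other copies listed the share was at most 1.05%. KIFC1 lies in the histocompatibility region, for which alternate sequences exist, and transcripts without a match in the annotation (2.92 to 3.17% of reads per library) were not counted.

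Other genes of division, from lists fixed by function, did not all follow. Of 52 other mitosis genes, 2 were higher and 12 lower at 3 h (26.9%, against 31.6% of all genes). These were led by FAM83D (-0.65 ± 0.11, adjusted p = 0.000387) and PSRC1 (-0.70 ± 0.13, adjusted p = 0.00113). At 24 h, where 40.8% of all genes were called, 17 were higher and none lower. These were led by NSL1 (0.53 ± 0.08, adjusted p = 0.000168) and CKS2 (0.45 ± 0.07, adjusted p = 0.000263). Between the 24 h and 0 h controls, where 0.251% of all genes were called, 9 were lower, and the median of the list was -0.64. Of 41 S phase genes, 4 were higher and 4 lower at 3 h (19.5%, against 31.6% of all genes). At 24 h, where 40.8% of all genes were called, 32 were higher and 1 lower, with a median of 0.66. Those were led by MCM2 (1.55 ± 0.09, adjusted p = 2.59e-07) and MCM4 (0.88 ± 0.09, adjusted p = 1.1e-05), both subunits of the replicative helicase. The mitosis genes in the same comparison had 10 of 50 and a median of 0.19. Per library, the S phase median of log2(CPM / mean CPM at 0 h) was -0.57 and -0.47 in the 24 h controls. It was -0.06 to 0.08 at 0 h and 0.09 to 0.19 at 24 h of latrunculin B. The 24 h controls thus lay below 0 h for this list as well. In the step from 12 to 24 h, 11.7% of all genes were called. There 10 of the S phase genes rose and none fell, while 31 of the mitosis genes fell. Without replicate 2 of 12 h these counts were 11 and 5.

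The machinery that carries out cleavage had genes called in both directions. For the lists that follow, the shares called are to be read against 31.6% of all genes at 3 h and 40.8% at 24 h. Of 23 actomyosin genes of cytokinesis, 2 were higher and 4 lower at 3 h (26.1%), led by DIAPH1 (0.69 ± 0.06, adjusted p = 1.27e-06), a formin that builds actin filaments, and SEPTIN8 (-0.17 ± 0.03, adjusted p = 0.00124). At 24 h 5 were higher and 8 lower (56.5%), led by MYL9 (-2.30 ± 0.18, adjusted p = 1.29e-06), a myosin light chain, and SEPTIN8 (-0.31 ± 0.04, adjusted p = 2.87e-05), a septin. Of 18 abscission genes 5 were higher and 3 lower at 24 h (44.4%), led by CHMP7 (0.27 ± 0.05, adjusted p = 0.000502) and CHMP1A (0.27 ± 0.05, adjusted p = 0.000838). Of 17 subunits and cofactors of the anaphase-promoting complex, 4 were higher and 2 lower at 24 h (35.3%), led by UBE2S (0.34 ± 0.07, adjusted p = 0.00165) and ANAPC7 (0.30 ± 0.06, adjusted p = 0.00177). Condensin and cohesin genes were 6 higher and 2 lower of 18 (44.4%), led by SMC3 (-0.52 ± 0.07, adjusted p = 8.15e-05) and PDS5B (0.33 ± 0.07, adjusted p = 0.00169).

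Among regulators known to read such promoters, 13 of 23 DREAM and E2F genes were higher and 2 lower at 24 h. In that comparison 40.8% of all genes were called. They were led by RBL2 (-0.44 ± 0.05, adjusted p = 4.68e-05), the pocket protein p130 of DREAM, which was lower, and RBL1 (0.79 ± 0.11, adjusted p = 0.000108), its relative p107, which was higher. RBL2 was also lower at 3 h (-0.45 ± 0.05, adjusted p = 1.7e-05) and 6 h (-0.64 ± 0.05, adjusted p = 6.39e-07). Of 21 p53 targets, 3 were lower at 3 h (14.3%, against 31.6% of all genes). At 12 h, where 35.8% of all genes were called, 10 were higher and 1 lower, led by SESN1 (0.72 ± 0.12, adjusted p = 0.000353) and BTG2 (0.41 ± 0.08, adjusted p = 0.00222). From 6 to 12 h, where 29% of all genes were called, 17 of them rose, led by PHLDA3 (1.39 ± 0.23, adjusted p = 0.000648) and FDXR (1.41 ± 0.25, adjusted p = 0.00119). Without replicate 2 of 12 h the p53 targets had 2 higher and 3 lower at 12 h, and 5 higher from 6 to 12 h. At 24 h, where 40.8% of all genes were called, 2 of the p53 targets were higher and 1 lower. Genes of the set with TTTGAA in a promoter (31) and those without (11) had medians of 0.19 and 0.17 at 24 h, and of -0.26 and -0.21 at 3 h. They stood further apart from 6 to 12 h (0.26 and 0.44) and in the difference of effects (0.39 and 0.60). They also did so from 12 to 24 h (-0.59 and -0.41), where 21 of 31 and 3 of 11 were called, against 11.7% of all genes. The difference between these groups of genes was not tested. Without replicate 2 of 12 h the median of the whole set moved from 0.29 to 0.11 for the step from 6 to 12 h. For the step from 12 to 24 h it moved from -0.57 to -0.34. The split by promoter is not given without that library, so how far its contrasts in these steps lean on it is not known.

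Markers of other cells moved in the same libraries. The 9 endocrine markers summed to 40.9 to 49.97 CPM at 0 h, 76.8 and 89.9 CPM in the 24 h controls and 112 to 341 CPM at 24 h of latrunculin B, where NEUROG3 (4.34 ± 0.42, adjusted p = 7.66e-06) and INSM1 (4.31 ± 0.39, adjusted p = 4.69e-06) were among 5 of 9 called higher. Of all genes, 40.8% were called in that comparison with the 24 h controls. Among the 3 treated libraries of 24 h, the endocrine sum was 112, 341 and 311 CPM and the mitosis median -0.61, -0.28 and -0.68. The part of these cells in the mitosis results was not tested.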

How the data were processed

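RNA sequencing of polyadenylated RNA covered 16 libraries in 6 groups. The authors deposited, per library, transcript tables of estimated counts (expected counts), TPM and effective length; the labels' processing notes name Salmon 1.3.0 and DESeq2, whereas the study's methods name STAR counting, so the notes and the files were followed. A second deposited table of the authors' own fold changes and 16 normalized columns was not used. Use of strand in counting is not given in the sources used here, so overlapping antisense reads cannot be told apart.

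Of 177456 transcripts, 165533 matched GENCODE 44 by identifier without version, and their estimated counts were summed per gene and rounded. Unmatched transcripts held 2.92 to 3.17% of reads. edgeR 4.0.16 (R 4.3.3) fitted all 16 libraries and 6 groups together, with TMM scaling, filterByExpr, and quasi-likelihood tests with Benjamini-Hochberg adjustment over 16705 genes. Genes with an adjusted p under 0.05 count as called. The ± after a log2 fold change is its standard error. Library medians added 0.1 CPM. DESeq2 1.42.0, other scalings and filters, a length offset, a replicate block, the other control and each library left out were alternatives. The scripts were tested on simulated data.

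Per-library values were given for the gene of lowest p in each role at 24 h, the 3 largest changes called against a control and those called against the majority; other genes printed per library (CCNB1, MKI67 and TOP2A) were chosen after their values were seen. The members and lists were chosen with earlier results of these data known.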

Additional observations from a re-analysis of the deposited data

Results flagged for a closer look

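The change at 24 h of latrunculin B against the 24 h controls differed from that at 3 h against the 0 h controls for 14 of the 50 genes. This was 28%, against 27.9% of all genes tested, a share near the background. The contrast between both changes had an adjusted p under 0.05 for these genes in edgeR's quasi-likelihood test. The difference of the 2 log2 fold changes, 24 h minus 3 h, was 1.11 for HMMR, 0.91 for KIFC1, 0.83 for CENPF and 0.80 for CCNB1. It was 0.71 for CCNB2, 0.70 for TPX2, 0.69 for both DLGAP5 and CKAP2, 0.68 for TTK and 0.65 for CDCA8. For CDC20 it was 0.64, for ANLN 0.56 and for BUB3 0.42, and it was -0.45 for AURKA, which was higher at both times and more so at 3 h. The 2 effects rest on different controls, and all 50 genes had fitted levels lower in the 24 h than in the 0 h controls. A changed effect of the drug therefore cannot be told apart from the change between the controls. CCNB1, CKAP2, BUB3 and KIFC1 were called in each of the 19 alternative fits, and AURKA in 6 of them.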

How the results depend on the processing

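The choice of control turned most directions. Against the other control the median was 0.52 at 3 h (27 genes called), 0.52 at 6 h, 0.76 at 12 h (40 called) and -0.53 at 24 h (38 called). Of the genes called, this turned the sign of 8 of 12 at 3 h, 13 of 18 at 6 h, 1 of 5 at 12 h and 7 of 10 at 24 h. FOXM1 (-0.51), TTK (-0.39) and KIFC1 (-0.58) at 24 h, CDCA8 at 3 h (0.38) and NUF2 at 6 h (0.54) were then called the other way. Among the genes described per library, those reversed at 24 h included CDCA8 (-0.43), TTK (-0.39), CDC20 (-0.32), CENPF (-0.05), KIFC1 (-0.58), ANLN (-0.16), CCNB1 (-0.05) and CDCA5 (-0.28). CCNB1 at 3 h (0.14), NUSAP1 at 6 h (0.39) and PRC1 at 12 h (0.21) were reversed as well.

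Counts of genes called moved by over 1.5 times as follows, and the cause was not tested. Fitting only the compared groups called 21 at 3 h, 2 at 12 h, 31 between the controls, 8 from 3 to 6 h, 4 from 6 to 12 h and 0 from 12 to 24 h, where none of all genes was called either and DESeq2 called 35 of the 50. Without scaling, 19 were called at 3 h, 2 between the controls and 22 from 6 to 12 h, and the median of all genes shifted to -0.102 at 6 h and 0.111 from 6 to 12 h. Between the controls, RLE factors called 3 (0.0479% of all genes called) and keeping all genes 23 (0.341%). Keeping those with 50 counts or more on average called 18 (0.663%), the transcript length offset 2 (0.0479%) and DESeq2 35 (1.71%). The length offset also called 1 from 3 to 6 h, 19 from 12 to 24 h and 9 for the difference of effects. At an adjusted p under 0.01 the counts were 5 at 3 h, 8 at 6 h, 3 at 12 h, 0 between the controls, 1 from 3 to 6 h, 7 from 6 to 12 h, 8 from 12 to 24 h and 5 for the difference of effects. With a log2 fold change of at least 1 they were 1 at 3 h, 0 at 6 h, 0 at 12 h, 1 at 24 h, 1 between the controls, 0 from 3 to 6 h, 1 from 6 to 12 h, 1 from 12 to 24 h and 1 for the difference of effects.

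Leaving out each library in turn gave 6 to 12 genes called at 3 h, 11 to 17 at 6 h, 3 to 9 at 12 h, 4 to 11 at 24 h, 0 to 3 between the controls, 1 to 3 from 3 to 6 h, 2 to 25 from 6 to 12 h, 5 to 40 from 12 to 24 h and 5 to 16 for the difference of effects. The medians then ranged from -0.18 to 0.20 at 12 h, so that the sign turned without replicate 2 of 12 h or of the 0 h controls, from 0.07 to 0.34 at 24 h and from 0.25 to 0.55 for the difference of effects. Against the 24 h controls, 25 to 44 genes were called at 12 h with 1 of its libraries left out, a setting chosen after seeing the data. A lone library left in a group was assumed to vary like the other groups.

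Libraries with the same replicate number did not deviate together. Of 36 such pairs 2 had a correlation over 0.1, the range was -0.24 to 0.12, and 4 of 16 libraries were closest to their own number. With the replicate block 1 gene was called between the controls and 21 from 12 to 24 h, and the other counts stayed within 1.5 times.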
